A study of Homo sapiens with 6 samples.

Results

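The genes described are SOD2 and 9 other antioxidant enzymes, 10 of the 58735 genes in the deposited table. They are the superoxide dismutases SOD1, SOD2 and SOD3, the peroxidases CAT, GPX1, GPX4, PRDX2, PRDX3 and PRDX5, and the electron donor TXN2, each found by its gene symbol. SOD2 has 2 identifiers in the table, and the one with the higher mean level was used. SOD2 was selected on its fold change and adjusted p with ZBTB16 in these same libraries, so its own difference between the groups is given as a description, and the other 9 were picked with those results known. The question was whether SOD2 rose alone among them.

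RNA sequencing was done on A549, an established human lung adenocarcinoma line, transfected with empty pcDNA3.1 (genotype label WT) or with a ZBTB16 plasmid (genotype label ZBTB16 overexpression), with 3 libraries per group. ZBTB16 is a zinc finger transcription factor known mainly as a repressor. The labels give neither the time after transfection, nor the share of cells that took up plasmid, nor whether the repeats were separate cultures, so p-values cover only library-to-library spread, possibly technical. Values are FPKM, reads per kilobase of gene scaled to the size of the library. In bulk RNA a change in the number of expressing cells and a change in RNA per cell cannot be told apart.

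Superoxide, which leaks mainly from the mitochondrial respiratory chain, is turned into hydrogen peroxide and oxygen by superoxide dismutases. SOD1 uses copper and zinc in the cytosol, SOD2 uses manganese in the mitochondrial matrix, and SOD3 is secreted. The hydrogen peroxide is then removed by catalase in peroxisomes, by glutathione peroxidases, which draw on glutathione, and by peroxiredoxins, which draw on thioredoxins. SOD2 is also known as a gene that inflammatory cytokines induce through NF-kB, whereas many other enzymes of this defence are targets of NRF2, a factor that is constantly active in A549 cells because their KEAP1 is mutated.

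The libraries held 15478010 to 17319971 reads, recovered from the FPKM. ZBTB16 had 0 reads in each empty-vector library and 426, 488 and 456 FPKM in the 3 ZBTB16 libraries, as the labels state. The epithelial keratins KRT8 and KRT18 were at 618 and 515 FPKM with empty vector, and ALDH1A1, which is high in A549, was the most abundant of the 9 epithelial and A549 markers at 1357 and 1235 FPKM. Not all 9 were high: the epithelial marker EPCAM had a mean of at least 1 but under 5 FPKM. The extraction text in the labels names retinas, but RPE65, a gene of the retinal pigment epithelium, was listed at 0 in every library. The summed level of the 9 retina markers was 2.85 to 3.53 FPKM with empty vector and 2.03 to 3.85 with ZBTB16, nearly all of it OPN1SW. The 8 leukocyte markers summed to 4.15 to 4.74 and 4.39 to 4.61 FPKM, mostly CD14, with CD3E at 0 and PTPRC at no more than 0.0022 on average, and the 8 fibroblast and endothelial markers to 2.30 to 2.62 and 2.25 to 2.55, mostly COL1A1. The part of these sums in the results was not tested.

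SOD2 (ENSG00000112096, hg38 chromosome 6, 159669057 to 159745186, minus strand) was at 16.5, 16.1 and 15.8 FPKM in empty-vector replicates 1, 2 and 3 and at 21.8, 24.0 and 22.6 FPKM in the ZBTB16 replicates. The lowest ZBTB16 library stood above the highest empty-vector library, and ZBTB16 replicate 1 was the lowest of its group. The means were 16.1 ± 0.372 and 22.8 ± 1.07 FPKM (SD, n = 3 each), a difference of 41.5%. On the log2(FPKM + 1) scale of the limma fit across 12499 genes the fold change was 0.48 (SE 0.050, 95% interval 0.36 to 0.59), and 77 of these genes had a larger one. A fold change at least that of SOD2 was seen for 0.624% of the genes tested. The reads behind it were 4554, 4432 and 4329 with empty vector and 5561, 6755 and 6476 with ZBTB16. Counting alone would give a coefficient of variation of 1.37%, beside the 2.31% and 4.70% seen within the groups. The 8 genes called higher in that fit at a Benjamini-Hochberg adjusted p under 0.05, 0.064% of those tested, included the transfected ZBTB16 itself. SOD2 was another of them, and that call is why it is described here. The call ended in each of the 6 limma fits that left out a library, with adjusted p from 0.0503 (without ZBTB16 replicate 1) to 0.138 (without empty-vector replicate 3) and a log2 fold change from 0.44 to 0.51.

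The 250 bases upstream of an annotated start show what kind of promoter these genes have, and they are printed for SOD2 and for the 2 enzymes that the comparison below turns on most, catalase and PRDX3, which works in the same compartment as SOD2. The sequences are those of RefSeq on GRCh38.p14, 5′ to 3′ on the strand of the gene, and capitals mark the GC box GGGCGG or its complement, the core of sites that SP1-type factors bind. They lie at chr6:159693242-159693491 on the minus strand, chr11:34438684-34438933 on the plus strand and chr10:119178813-119179062 on the minus strand.

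SOD2: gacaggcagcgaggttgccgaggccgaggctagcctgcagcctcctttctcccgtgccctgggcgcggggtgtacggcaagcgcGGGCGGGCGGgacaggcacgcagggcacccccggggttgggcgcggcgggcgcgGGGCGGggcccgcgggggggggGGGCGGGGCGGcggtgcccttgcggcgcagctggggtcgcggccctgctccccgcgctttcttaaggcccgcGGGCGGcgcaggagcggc

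CAT: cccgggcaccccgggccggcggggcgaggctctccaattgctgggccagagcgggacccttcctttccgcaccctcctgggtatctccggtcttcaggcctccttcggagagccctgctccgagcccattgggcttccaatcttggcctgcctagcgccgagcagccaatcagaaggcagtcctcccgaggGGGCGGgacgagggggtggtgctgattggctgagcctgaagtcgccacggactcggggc

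PRDX3: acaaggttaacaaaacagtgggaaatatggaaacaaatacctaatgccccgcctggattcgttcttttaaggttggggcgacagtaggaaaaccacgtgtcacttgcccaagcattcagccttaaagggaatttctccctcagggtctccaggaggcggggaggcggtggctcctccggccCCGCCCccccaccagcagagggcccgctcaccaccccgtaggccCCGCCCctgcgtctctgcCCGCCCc

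RefSeq has 14 such windows for 8 of the 10 genes, 4 of them for SOD2, and none was found for SOD1 or TXN2. The SOD2 window at 159762282 to 159762531 lies outside the SOD2 identifier used here, at the start (159762529) of the second SOD2 identifier. Which of these starts the cells use was not tested. The SOD2 window above has 6 GC boxes, some of which overlap, and a GC content of 80.8%, beside 3 and 60.4% for PRDX3 and 1 and 68.8% for CAT. It has the most GC boxes of the SOD2 windows, the others having 1, 4 and 1 at 71.2%, 78.4% and 68.0%. A GPX4 window has 4 at 80.4%, and 13 of the 14 windows hold a GC box. CAT has 5 matches of CCAAT, on both strands. Of 35116 windows of this length, 42.6% hold a GC box and 32.0% hold CCAAT, with a mean GC content of 57.2%. Motifs were searched on both strands. None of the 14 windows holds TATAAA, the AP-1 motif TGANTCA, the antioxidant response element TGACNNNGC or the NF-kB decamer, which occur in 10.7%, 6.57%, 10.9% and 9.96% of all windows. These letters were searched in these windows only. The NF-kB-responsive enhancer described for SOD2 lies within the gene and is outside them.

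The cytosolic dismutase SOD1 (ENSG00000142168, chromosome 21, 31659622 to 31668931, plus strand) was at 79.4, 72.8 and 74.5 FPKM with empty vector and at 77.0, 77.6 and 72.0 FPKM with ZBTB16. The groups overlapped, and the log2 fold change of -0.0010 (95% interval -0.12 to 0.12) leaves room for a change between -7.80% and 8.31%. The secreted dismutase SOD3 (chromosome 4) had 2 reads in all, 1 in each of 2 empty-vector libraries. Its 0 reads with ZBTB16 allow up to 0.0283 FPKM over that group, for counting error only, and no fold is given. CCS, the chaperone that loads copper into SOD1, was at 10.0 and 9.57 FPKM, with overlapping groups.

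The plot of FPKM by library shows the 8 enzymes that reached a mean of 1 FPKM, the minimum for the fit.

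**Figure D1:**
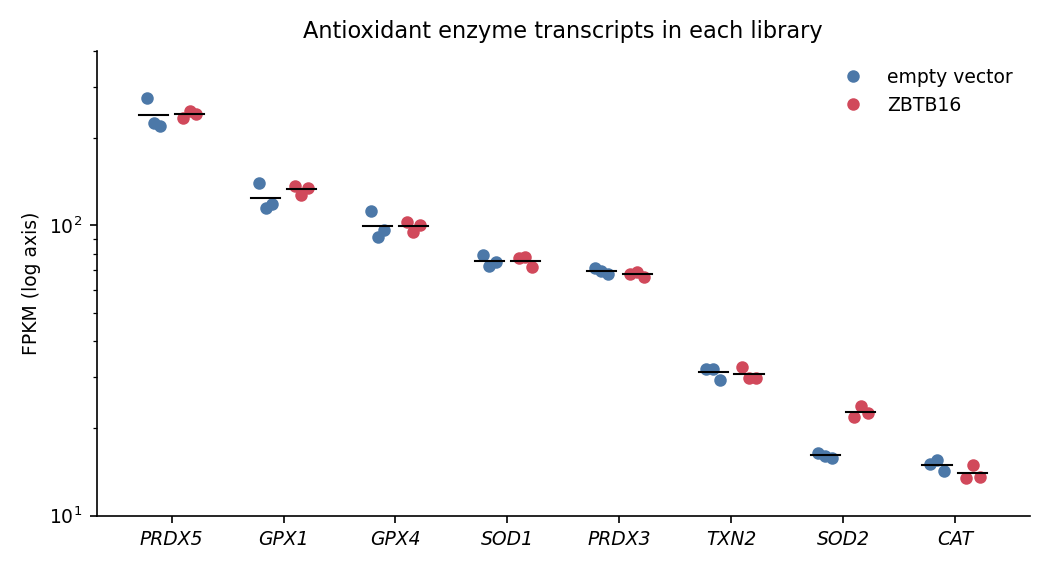
FPKM of the 8 tested enzymes in each of the 6 libraries on a log axis, ordered by mean level, with points for libraries and lines for group means. SOD2 at 15.8 to 16.5 and 21.8 to 24.0 FPKM is the enzyme whose groups stand apart, and empty-vector replicate 1 is the highest point of PRDX5, GPX1, GPX4, SOD1 and PRDX3, 5 of the 7 others.

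Catalase (CAT, chromosome 11, 34438925 to 34472062), the peroxisomal enzyme that splits hydrogen peroxide without a donor, was at 15.1, 15.6 and 14.2 FPKM with empty vector and at 13.5, 15.0 and 13.6 FPKM with ZBTB16. The ZBTB16 values leaned low but overlapped those of the empty vector, and the log2 fold change was -0.09 (95% interval -0.22 to 0.04). That was the smallest limma adjusted p of the other enzymes, 0.685. Among 17 genes of peroxisome assembly and oxidation, 0 were called, beside 0.072% of all tested genes. Of these 17, 12 were positive, beside 48.5% of all tested genes, and 5 negative, with a median log2 fold change of 0.05. PEX7, an import receptor, had the smallest p there, at 3.67 and 3.09 FPKM with a limma adjusted p of 0.472.

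Among the peroxiredoxins, PRDX3, which removes hydrogen peroxide in the mitochondrial matrix, was at 71.2, 69.9 and 67.8 FPKM with empty vector and at 68.0, 69.1 and 66.3 FPKM with ZBTB16. It was the steadiest of the tested enzymes other than SOD2, with coefficients of variation of 2.44% and 2.09% within the groups. Its log2 fold change was -0.04 (95% interval -0.13 to 0.06). PRDX5, which is found in mitochondria, peroxisomes and the cytosol, was the most abundant at 275, 225 and 221 FPKM and at 235, 249 and 242 FPKM. Empty-vector replicate 1 exceeded every other library, and the log2 fold change of 0.02 had an interval from -0.17 to 0.21. TXN2, the mitochondrial thioredoxin that reduces PRDX3 and PRDX5, was at 32.1, 32.1 and 29.3 FPKM and at 32.5, 29.7 and 29.9 FPKM, with a log2 fold change of -0.02 (-0.15 to 0.11). All 3 of these enzymes had overlapping groups, with intervals that reach no further than 0.21 on the log2 scale in the upward direction.

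PRDX2, a cytosolic peroxiredoxin (chromosome 19, 12796820 to 12801859), had only 1 to 6 reads per library, at most 0.168 FPKM, and was not tested. RNASEH2A, a nearby gene for a subunit of ribonuclease H2, was likewise at 0.0824 to 0.312 FPKM, while JUNB on one side was at 77.5 to 89.5 FPKM and DNASE2 on the other at 16.6 to 19.3 FPKM. Exons of other genes cover 14.1% of the PRDX2 exon bases and 30.8% of those of RNASEH2A, and pseudogenes named for PRDX2 had no more than 2 reads in a library. What keeps PRDX2 low was not tested, so it is listed near 0 and not called unexpressed.

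GPX1 and GPX4 are selenoproteins. GPX1, the general cytosolic and mitochondrial enzyme (chromosome 3, 49357171 to 49358600), was at 140, 115 and 118 FPKM with empty vector and at 137, 127 and 135 FPKM with ZBTB16. The highest value was again empty-vector replicate 1, and the log2 fold change of 0.10 (95% interval -0.07 to 0.27) was the largest of the other enzymes. Without empty-vector replicate 1 it was 0.19 with a limma adjusted p of 0.232. GPX4, which reduces lipid peroxides and guards against ferroptosis (chromosome 19, 1103926 to 1106791), was at 112, 91.3 and 96.6 FPKM and at 103, 94.8 and 100.1 FPKM. Its log2 fold change was -0.0049 (-0.17 to 0.16) and turned to 0.08 without that library. In empty-vector replicate 1 the 2215 tested genes of up to 2000 bases had a median log2 deviation of 0.06 from their mean over all libraries, against -0.04 for the 2284 genes over 8000 bases. In the other 5 libraries these medians lay between -0.03 and 0.02. PRDX5 (893 bases) and GPX1 (1430 bases) are in the short class and SOD2 (16493 bases) in the long one, while GPX4, SOD1 (2019 bases) and PRDX3 (3417 bases), also highest in that library, are in neither, and the part of this pattern in their values was not tested. SOD2 itself had a log2 fold change of 0.49 without that library. Of 14 pseudogenes that carry the symbol of one of the enzymes, GPX1P1 had the most reads, at most 15 in a library.

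Over the 7 tested enzymes other than SOD2, 2 had positive and 5 negative fold changes, from -0.09 to 0.10 with a median of -0.0049, beside a median of -0.0031 over all 12499 genes, of which 48.5% were positive. None was called, at limma adjusted p from 0.685 to 0.998, none had an unadjusted p under 0.05, and none had groups that did not overlap. Of all tested genes 0.064% were called higher and 0.008% lower, 0.072% in all. An unadjusted p under 0.05 was reached by 10.2%. The groups stood apart for 8.12% upward and 8.1% downward, 16.2% in all, so few or none would be met among 7 genes in any case. Exact two-sided permutation tests of each gene gave p from 0.2 to 1, where 3 libraries against 3 cannot go below 0.1. All 7 upper bounds, of which 0.27 for GPX1 is the highest, lay below the lower bound of 0.36 for SOD2, although SOD2 was picked for being high.

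**Figure D2:**
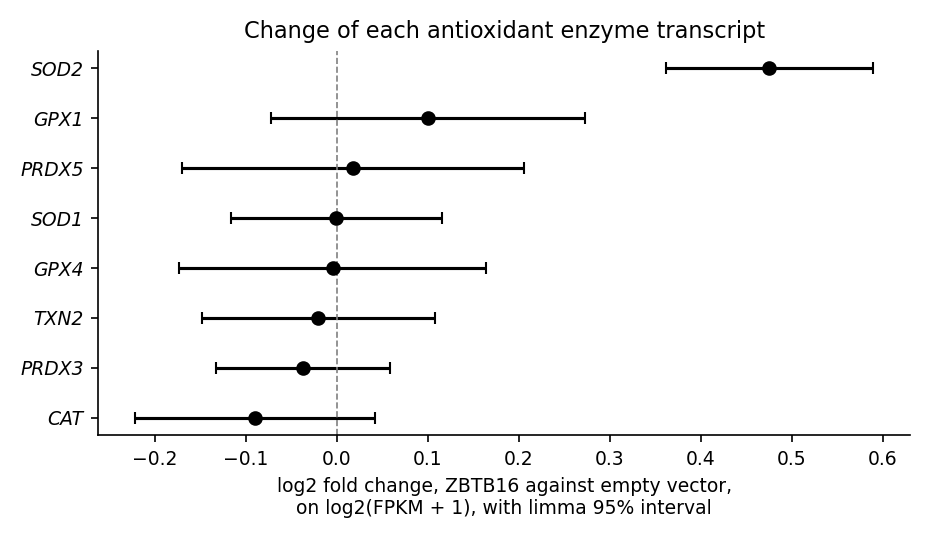
Log2 fold change of ZBTB16 against empty vector for the 8 tested enzymes, with limma 95% intervals (n = 3 per group). The SOD2 interval of 0.36 to 0.59 lies to the right of the other 7, all of which include 0. SOD2 was picked for being high in these libraries, so its place is a description.

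The comparison can also be made inside each library, where depth and scaling cancel. A pattern that goes with gene length, as in empty-vector replicate 1, need not cancel. For the short genes PRDX5 and GPX1 the SOD2 ratio was 0.0600 and 0.117 in that library. In empty-vector replicates 2 and 3 it was 0.0716 and 0.0714 for PRDX5, and 0.140 and 0.133 for GPX1. The part of the length pattern in these ratios was not tested. The ratio of SOD2 to PRDX3 was 0.232, 0.230 and 0.232 with empty vector and 0.321, 0.346 and 0.341 with ZBTB16. The mitochondrial dismutase transcript therefore stood higher against the matrix peroxidase transcript in every ZBTB16 library. The ratio of SOD2 to SOD1 was 0.208, 0.221 and 0.211 with empty vector and 0.284, 0.309 and 0.314 with ZBTB16. Against catalase it went from 1.09, 1.04 and 1.11 to 1.62, 1.60 and 1.67, so that the pair was nearly level in FPKM with empty vector and was not with ZBTB16. In all 7 ratios the groups stood apart, and the ratio of the group means ran from 1.32 with GPX1 to 1.51 with CAT. Since the same SOD2 values enter all 7 ratios and SOD2 was chosen for being high, no test is given. The share of SOD2 in the summed FPKM of the 10 enzymes was 2.40% with empty vector and 3.33% with ZBTB16.

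**Figure D3:**
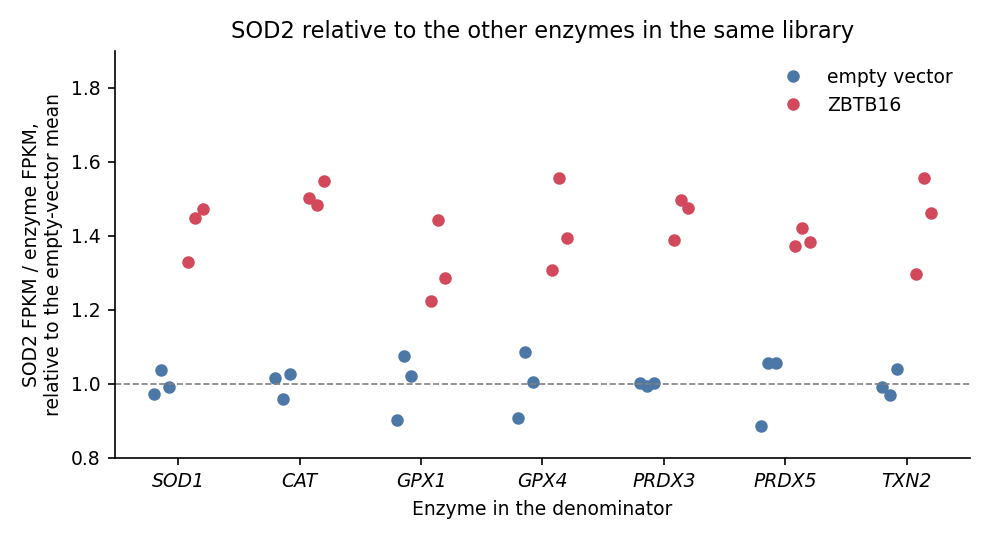
SOD2 FPKM divided by the FPKM of each other tested enzyme in the same library, relative to the empty-vector mean of that ratio (dashed line at 1). All ZBTB16 points lie above all empty-vector points for each of the 7 denominators, with ratios of means from 1.32 to 1.51. The same SOD2 values, picked for being high, enter each ratio.

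The order of the levels was PRDX5, GPX1, GPX4, SOD1, PRDX3, TXN2, SOD2, CAT, PRDX2 and SOD3, by mean FPKM over the 6 libraries, and the ranges of neighbours in that order did not overlap. Some gaps were narrow: the lowest GPX1 value of 115 FPKM stood beside a highest GPX4 value of 112, the lowest SOD1 value of 72.0 beside a highest PRDX3 value of 71.2, and the lowest SOD2 value of 15.8 beside a highest CAT value of 15.6. The lowest PRDX2 value of 0.0309 FPKM and the highest SOD3 value of 0.0282 FPKM were 1 read each. Those single values therefore do not resolve the order of PRDX2 and SOD3, though over the 6 libraries PRDX2 had 16 reads and SOD3 had 2. The place of SOD2 rests on the length the authors divided by. Its 16493 bases are all annotated exons merged, whereas its 10 coding transcripts run from 507 to 14266 bases. By reads it was the highest of the 10 in 6 of 6 libraries, with 4329 reads or more.

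SOD2 shares its locus with other annotated genes. WTAP, which encodes a subunit of the complex that writes N6-methyladenosine into RNA, lies on the opposite strand at 159725585 to 159756319 and overlaps the outermost SOD2 exons. It was at 10.0, 10.0 and 10.2 FPKM with empty vector and at 11.3, 12.0 and 11.5 FPKM with ZBTB16. Its log2 fold change was 0.18 and the limma adjusted p 0.203. Its groups also stood apart, as did those of 16.2% of genes, by a smaller margin than those of SOD2. WTAP exons cover 1.81% of the SOD2 exon bases, and the sources used here do not say whether reads were counted by strand, so reads in those bases cannot be told apart. WTAP had 1074 to 1315 reads in a library, while the SOD2 reads were 4329 to 4554 with empty vector and 5561 to 6755 with ZBTB16. The second identifier of SOD2 (ENSG00000285441) shares 90.5% of its exon bases with other genes and had 0 reads in all 6 libraries, so summing both changed nothing. Its exons cover, on the same strand, 5.12% of the exon bases of the SOD2 identifier used here. Whether reads in those bases were counted or dropped cannot be told, since the sources used here do not name the read counter.

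The next tested genes were not called. ACAT2, a cytosolic thiolase 15142 bases away, was at 6.55, 6.43 and 7.09 FPKM with empty vector and lower at 6.25, 5.76 and 6.14 FPKM with ZBTB16 (log2 fold change -0.12, limma adjusted p = 0.524). The groups stood apart, downward. TCP1, a subunit of a cytosolic chaperonin, was at 48.2 and 47.4 FPKM, and MRPL18, a mitochondrial ribosomal protein, at 48.8 and 49.4 FPKM, both with overlapping groups. On the other side the nearest tested gene, RSPH3, which encodes a radial spoke protein of cilia, was 668870 bases away, at 2.11 and 2.24 FPKM (log2 fold change 0.06, limma adjusted p = 0.852). Its groups stood apart, upward, by a narrow margin, the highest empty-vector value being 2.12 and the lowest ZBTB16 value 2.15 FPKM.

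**Figure D4:**
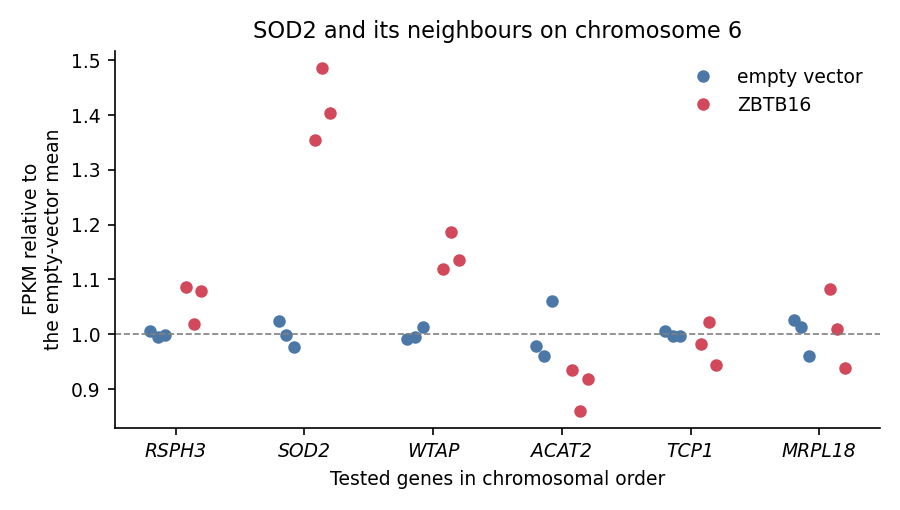
FPKM of SOD2 and tested genes around it on chromosome 6, relative to each gene's empty-vector mean, for each library. SOD2 has the largest shift, WTAP on the opposite strand a smaller one at 11.3 to 12.0 against 10.0 to 10.2 FPKM, RSPH3 a small one at 2.15 to 2.29 against 2.10 to 2.12 FPKM, ACAT2 lies lower with ZBTB16, and TCP1 and MRPL18 overlap.

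The wider antioxidant system was taken as 5 lists of 37 genes, of which 34 were tested. Apart from SOD2, 0 of the other 33 were called. Over all tested genes 0.072% were called, so 0 calls in this or a later list say little. Of the 33, 15 had positive and 18 negative fold changes, beside 48.5% positive over all tested genes. Their median was -0.0025, from -0.26 for GGCT to 0.29 for TXNIP. An unadjusted limma p under 0.05 was reached upward by 2 of them, TXNIP and CHAC1, and over all tested genes by 5.08%. Downward it was reached by 6, SRXN1, GPX2, GCLC, GSR, GLRX2 and GGCT, and over all tested genes by 5.17%. The groups of the same 2 and 6 genes stood apart, beside 8.12% upward and 8.1% downward over all tested genes. The downward share of the 33 was above that of all tested genes, a difference that was not tested. The 3 genes that were not tested were SOD3, PRDX2 and the endoplasmic reticulum peroxidase GPX7, listed at 0 throughout.

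Among the thioredoxin genes, TXNIP, which binds and inhibits thioredoxin, was at 4.96, 4.40 and 4.47 FPKM with empty vector and at 5.84, 6.21 and 5.46 FPKM with ZBTB16, and did not pass (limma adjusted p = 0.175). The cytosolic thioredoxin TXN was the most abundant at 404 and 416 FPKM, with overlapping groups. In the peroxiredoxin list PRDX1 was the most abundant at 402 and 392 FPKM, and SRXN1, the sulfiredoxin that repairs overoxidised peroxiredoxins, was at 18.7 and 15.7 FPKM (log2 fold change -0.24, limma adjusted p = 0.371). Of the 6 tested genes of that list 3 were positive and 3 negative, with a median of -0.0087.

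GPX2, the epithelial glutathione peroxidase, was at 147, 145 and 139 FPKM with empty vector and at 124, 131 and 121 FPKM with ZBTB16. It had the highest mean of the glutathione peroxidases over the 6 libraries, and the groups stood apart, downward, with a log2 fold change of -0.20 that did not pass (limma adjusted p = 0.175). It passed in 1 of 16 alternative fits. GGCT, an enzyme of glutathione turnover, was at 14.6 and 12.0 FPKM (log2 fold change -0.26, limma adjusted p = 0.153). In the glutathione supply list, 4 of 12 genes were positive and 8 negative with a median of -0.02, and the cystine transporter subunit SLC3A2 was the most abundant at 125 and 125 FPKM. For the NADPH that these systems consume, 8 of 10 genes were negative, with a median of -0.06. None of the 10 was called, beside 0.072% of all tested genes. There the transketolase TKT, with the smallest p, was at 148 and 139 FPKM (limma adjusted p = 0.533).

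No other mitochondrial gene of the lists was called, beside 0.072% of all tested genes. Of 15 genes of matrix chaperones, proteases and import, 0 were called, 2 were positive and 13 negative, with a median of -0.04. The chaperonin HSPD1 was at 173 and 162 FPKM, and TRAP1, a matrix chaperone with the smallest p of the list, at 22.0 and 20.1 FPKM (limma adjusted p = 0.453). Of 12 tested genes of mitochondrial transcription and biogenesis, 4 were positive and 8 negative, with a median of -0.04. NRF1, the nuclear respiratory factor, was at 4.28 and 3.49 FPKM (log2 fold change -0.23, limma adjusted p = 0.241), and ESRRA, a nuclear receptor of that program, at 29.05 and 29.33 FPKM.

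For the cofactors, selenocysteine insertion had 1 of 6 tested genes positive and a median of -0.04. TRNAU1AP, a protein bound to the selenocysteine transfer RNA, was at 3.37 and 2.73 FPKM (limma adjusted p = 0.338) and the selenophosphate synthetase SEPHS2 at 40.2 and 38.9 FPKM. In metal handling 5 of 11 tested genes were positive and 6 negative, with a median of -0.0038. SLC39A8, a carrier that takes up manganese and zinc, stood out within that list at 10.8, 10.8 and 10.7 FPKM with empty vector and 12.8, 15.5 and 14.8 FPKM with ZBTB16. Its groups did not overlap, as for 8.12% of all tested genes upward. Its lowest ZBTB16 library was replicate 1, as for SOD2 and also for TNFAIP3. The log2 fold change of 0.38 did not pass over all genes (limma adjusted p = 0.0982) and passed in 3 of 16 alternative fits. The groups of SLC11A2, at 6.45 and 7.06 FPKM, also stood apart upward. The other manganese carrier of the family in the list, SLC39A14, was at 30.3 and 29.8 FPKM, and the ferritin light chain FTL, the most abundant, at 7650 and 7916 FPKM. Of 13 oxidant-producing genes 6 were tested, 4 positive and 2 negative, with a median of 0.02. XDH, the xanthine dehydrogenase that can act as an oxidase, was at 4.61 and 5.86 FPKM (log2 fold change 0.29, limma adjusted p = 0.180), and the oxidase subunit CYBA at 67.5 and 68.7 FPKM.

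The 20 genes listed as responding to NF-kB were all positive, beside 48.5% of all tested genes, with a median log2 fold change of 0.28. Called higher were 3 of them, beside 0.064% of all tested genes: CXCL8 at 0.73, CXCL1 at 0.54 and TNFAIP3 at 0.46. Of the 20, 2 had a fold change at least the 0.48 of SOD2. The upward direction was known from these libraries when the list was written, and all 3 calls share the control libraries with SOD2. Those of CXCL1 and TNFAIP3 ended in each of the 6 limma fits that left out a library (adjusted p from 0.0581 to 0.112 and from 0.0503 to 0.153), and that of CXCL8 held in 2 of 6 (0.0289 to 0.0583). All 3 were also lost with no filter (limma adjusted p = 0.347) and with a constant prior (0.140 for CXCL8 and 0.160 for CXCL1 and TNFAIP3). Among 14 tested factors described as regulators of SOD2, 0 were called, beside 0.072% of all tested genes. Of the 14, 11 were positive, beside 48.5% of all tested genes, and the median was 0.08. STAT3 had the smallest p at 30.8 and 33.4 FPKM (limma adjusted p = 0.478), and the nucleolar protein NPM1 was the most abundant at 240 and 227 FPKM.

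**Figure D5:**
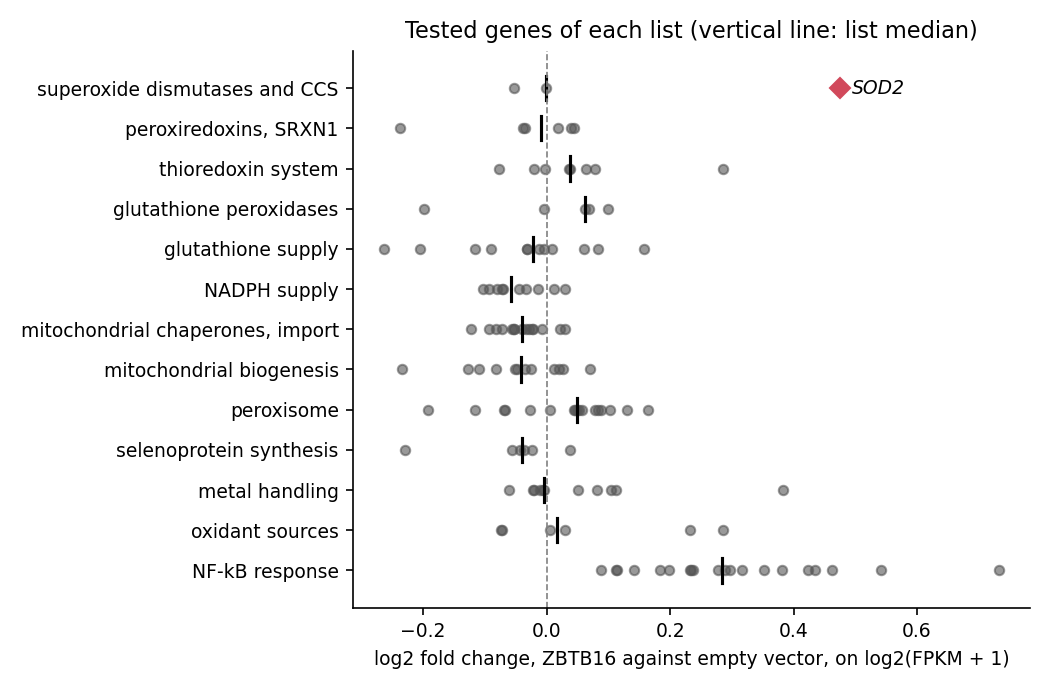
Log2 fold change of ZBTB16 against empty vector for every tested gene of the lists on the vertical axis, with a vertical line at each list median and SOD2 as a diamond. SOD2 at 0.48 lies beyond every other antioxidant gene, of which TXNIP at 0.29 is the nearest. It is inside the range of the NF-kB response list, 0.09 to 0.73, where 2 of 20 genes reach its fold change. SOD2 was picked for its fold change and that list was written with its direction known, so both placements are a description.

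Across the 6 libraries, the 8 genes whose log2 levels ran most like those of SOD2, among 7070 others with a mean of at least 5 FPKM, were BZW2, CDCP1, TLDC1, TNFAIP3, NFKBIZ, ALG2, CXCL2 and ZBTB16 itself. Their Pearson r ran from 0.987 to 0.998, and 182 genes, 2.57%, reached 0.9. With 6 libraries in 2 groups such values mostly restate the difference between the groups, and they are a description. BZW2, a regulator of translation, was the most alike at 15.5, 15.4 and 15.2 FPKM with empty vector and 16.3, 16.7 and 16.5 FPKM with ZBTB16. For the other antioxidant enzymes r was between -0.49 for CAT and 0.46 for GPX1, and for WTAP it was 0.980.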

How the data were processed

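The deposited table gives FPKM for 58735 genes and, per the file headers, their length, position and biotype. The submitters' processing notes name HISAT2 2.0.5 and build hg38, while the sources used here do not name the read counter, strand setting or filters. Multiplying by length turned 100% of values into whole numbers of reads (tolerance 0.01). Median-ratio factors were equal in all 6 libraries, so the deposited FPKM may already carry that scaling, which the sources used here do not state. Library groups and numbers come from the sample titles.

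Genes averaging 1 FPKM or more (12499) entered limma 3.58.1 (R 4.3.3) as log2 of FPKM plus a pseudocount of 1, computed from the deposited values, with a trended robust prior, two-sided, and Benjamini-Hochberg adjustment over all of them. A gene was called at an adjusted p under 0.05. This scale understates changes of low genes. A floor is 3 reads over a group and reflects counting error alone. Single enzymes other than SOD2 also had an exact permutation test. Exon overlap was taken from GENCODE 29 and promoter sequences from RefSeq. From each list, called genes were named or else the gene with the smallest p and the gene of highest FPKM; genes overlapping SOD2, its nearest tested neighbours and the 8 genes most like it were named too, and further genes were chosen after their values were seen. A few genes that this rule names are not reported here. The fit was checked on simulated data. Alternatives covered pseudocount, filter, scaling, prior, voom, the replicate block and each library left out. Members and lists were chosen with earlier results of these data known.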

Additional observations from a re-analysis of the deposited data

How the results depend on the processing

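The SOD2 log2 fold change ran from 0.47 to 0.50 under 11 alternatives and from 0.44 to 0.51 with a library left out, and its limma call held in 7 of the 9 that could differ; median-ratio scaling and summing both SOD2 identifiers repeat the same values by construction. The call ended, at the same 0.48, with no filter (31102 genes with at least 1 read, limma adjusted p = 0.347) and with a constant prior (0.160), and in each fit without a library. The number of the 10 enzymes called higher was then 0 in place of 1, and 0 to 0 over the 6 fits with a library left out. None of the 7 other tested enzymes was called in any of 111 values over these settings, at a smallest limma adjusted p of 0.232. SOD2 minus the median of the other enzymes was 0.48, and 0.44 to 0.54 with a library left out.

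With a library left out the log2 fold change of SOD1 ran from -0.0275 to 0.0348, of GPX4 from -0.0668 to 0.0782, of PRDX5 from -0.0395 to 0.119 and of TXN2 from -0.0631 to 0.0021, so each took both signs. Over all genes, 8 were called higher, the transfected ZBTB16 among them, and 1 lower. With a mean FPKM of at least 5 it was 44 and 31, among protein-coding genes 56 and 33, with voom on recovered reads 102 and 104, and with no filter or a constant prior 1 and 0. With a pseudocount of 0.1 or equal-sum scaling 2 were lower. With a library left out, 1 to 4 were higher and 0 to 2 lower. With the replicate block 12 were higher and 3 lower and SOD2 kept its call (limma adjusted p = 0.0475). Same-numbered libraries deviated together with correlations of 0.07, 0.05 and -0.04, so the numbers were not taken to pair the libraries. A quasi-likelihood count model on the recovered reads was planned and not run. SOD3 and PRDX2 had too few reads for any comparison of the groups.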
